A study of Mus musculus with 69 samples.

Results

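The 9 interferon-linked genes described here across mouse hippocampus and cultured microglia, of 54429 gene symbols listed in all 3 count tables, are Ifi27l2a, Ifi27, Bst2, Lgals3bp, Ifitm2, Ifitm3, Rtp4, Ly6e and Cd52. They were chosen by symbol, from earlier results of these data in which most of them rose with the TLR7 agonist gardiquimod while Ifi27l2a or Ifi27 went against the others under myelin or Tlr7 knockout. Values in the gardiquimod, myelin and knockout contrasts are therefore given as a description, without p-values. Comparisons of the sexes and the TLR7 inhibitor experiment were not used in that choice and are tested. Outside the inhibitor experiment, differences of a response between the sexes are built from contrasts that the choice used. Their tests carry that limit. Values of the gardiquimod, myelin and knockout contrasts come from the same data as that choice, so they do not check it. They follow its wording only in part. Ifi27l2a went against most of the others with myelin and Ifi27 with the knockout, Ifi27 moved with the others under myelin, and 4 of the 9 (Ifitm2, Ifitm3, Ly6e and Cd52) passed the threshold with gardiquimod in neither sex taken alone.

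The study measured 3′ mRNA sequencing counts in 69 libraries from 3 experiments, which were fitted separately. In the agonist experiment, hippocampus was taken from wild-type mice given saline or gardiquimod, with 7 libraries in each of 4 groups; all males were 12.12 months old and all females 9.60 months, so sex and age cannot be told apart there. In the microglia experiment, primary microglia prepared at postnatal days 1 to 3 from males or females, wild-type (WT) or TLR7:-/- (KO), were given the vehicle DMSO or purified myelin, 8 groups with 3 libraries in each. For the inhibitor experiment, hippocampus came from PSUK+ mice (the meaning of this genotype name is not explained in the labels) given a control or an unnamed TLR7 inhibitor; there were 3 female and 3 male control libraries, 5 female and 6 male inhibitor libraries, at ages of 5.50, 6.06 or 6.85 months. Age was not balanced over the inhibitor groups, and the main fit did not adjust for it. All male controls were 5.50 months old, no control was 6.06 months old, and only females were 6.85 months old. Every mouse of that experiment carries the PSUK+ label, controls included, and for no experiment do the sources used here give a dose, a route or how many animals made up a library.

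Type I interferon acts on its receptor to switch on interferon-stimulated genes, and TLR7, an endosomal receptor for single-stranded RNA, is one of the sensors that start interferon production. The proteins of these 9 genes sit in or pass through membranes, or are secreted. Ifi27l2a and Ifi27 encode small hydrophobic proteins of the ISG12 family; Bst2 encodes tetherin, which holds budding virions at the cell surface; Ifitm2 and Ifitm3 encode transmembrane proteins that restrict virus entry; Ly6e and Cd52 encode small surface proteins held by a glycosylphosphatidylinositol (GPI) anchor; Rtp4 encodes a receptor transporter protein; and Lgals3bp encodes a secreted glycoprotein that binds galectin-3.

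Total counts per library, with M for a count of 1e6, ranged from 14.3 to 23.5 M in the agonist experiment, from 15.3 to 21.3 M in microglia and from 14.4 to 21.0 M in the inhibitor experiment, and all 9 genes passed the filter on low counts in each. Levels are in CPM, the counts of a gene for every 1e6 counts in the library, without further scaling. Overlap between groups is described for the named genes only. The share of all genes whose groups did not overlap is not given, so nothing is read from a lack of overlap. Hippocampal counts were small for some genes, with 7 to 243 reads per library for Ifi27l2a and 10 to 137 for Rtp4, against 1045 to 3375 for Ly6e. Tlr7, the deleted gene, was at 166.0 to 201.8 CPM in WT microglia and at 1.2 to 2.68 CPM in KO microglia. The summed level of 13 microglia markers was 5201 to 8003 CPM in the cultures and 312.6 to 666.1 CPM in hippocampus, where 8 neuron markers summed to 9567 to 13626 CPM against 1.83 to 8.09 CPM in the cultures. In each group of cultures, 6 to 8 of the 12 markers of peripheral immune cells were at 0. In bulk RNA, fewer cells of a type and less RNA per cell cannot be told apart. Some libraries stood apart in interferon genes. Relative to the other libraries of the group, the median log2 deviation of the other interferon genes was 1.02 in the third KO male DMSO library and 1.08 and -0.93 in the fourth and second female inhibitor libraries. It was smaller, but no less than 0.48 in size, in the fourth female saline (0.48), seventh female gardiquimod (0.50), sixth male saline (-0.49), first KO male DMSO (-0.59), and first and second female control libraries of the inhibitor experiment (-0.57 and 0.53), which makes 9 in all. In the KO male DMSO group of 3, the third library enters the deviations of the first and the second (-0.46), so these are not separate departures. Values without a library are given where leaving it out changed a call or turned a sign that the text rests on.

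Promoter windows, 250 bases before to 50 bases after the RefSeq start (GRCm38.p6), were found by symbol for 4 of the 9 genes and are shown because they can be read beside the coordinated changes below. Each was searched on both strands for GAAANNGAAA, the doubled half-site of interferon-stimulated response elements, and for AANNGAAA, a single core contained in it. The doubled form was present in 3 of the 4 windows, in 21 of 43 windows of other interferon genes (48.8%) and in 1131 of all 32851 windows (3.44%). The single core was present in 4 of 4, in 32 of 43 (74.4%) and in 7857 of all windows (23.9%). In Bst2 a pair of overlapping doubled matches begins at bases -130 and -124 from the start; in Ifitm2 the match begins at -46; in Ifitm3 the matches begin at bases 3 and 20 after the start, and its 250 upstream bases hold none. The Lgals3bp window holds a single core at -14 and no doubled form; the gene model in the count tables begins upstream of that RefSeq start. A match describes letters and not binding. Capitals mark the doubled matches, or the single core in Lgals3bp; all are on the minus strand and written 5′ to 3′.
Bst2, chr8:71537473-71537722: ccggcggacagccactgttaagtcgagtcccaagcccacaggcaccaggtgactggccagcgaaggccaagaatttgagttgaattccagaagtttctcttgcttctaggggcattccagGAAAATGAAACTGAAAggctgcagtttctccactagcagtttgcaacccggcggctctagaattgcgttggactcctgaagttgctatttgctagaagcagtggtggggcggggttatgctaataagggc
Ifitm2, chr7:140955962-140956211: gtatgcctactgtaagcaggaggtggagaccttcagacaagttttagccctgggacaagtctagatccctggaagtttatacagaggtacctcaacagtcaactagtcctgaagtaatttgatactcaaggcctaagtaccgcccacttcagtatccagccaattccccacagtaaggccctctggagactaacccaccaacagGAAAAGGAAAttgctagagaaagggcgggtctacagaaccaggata
Ifitm3, chr7:141010715-141010744: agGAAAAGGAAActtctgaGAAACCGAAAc
Lgals3bp, chr11:118401960-118401989: tcatgtgttttctgaaAATCGAAActaggt

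To describe the response to a TLR7 agonist in brain tissue, gardiquimod was compared with saline within each sex. Ifi27l2a (ENSMUSG00000079017, chr12:103442167-103443680, minus strand) had the largest log2 change of the 9 genes in both sexes. Its level was 0.496 to 3.14 CPM in saline males, with a median of 1.91, and 5.25 to 12.6 CPM in gardiquimod males, with a median of 7.56. The male groups did not overlap, and the log2 change was 2.22 ± 0.39 (fitted log2 fold change ± SE here and below), a fold of 4.67. In saline females the range was 0.944 to 8.55 CPM with a median of 1.87, and in gardiquimod females 6.38 to 14 CPM with a median of 10.6. The female groups overlapped through the fourth saline library alone, at 8.55 CPM; the next highest saline female had 3.40 CPM. The female log2 change was 1.85 ± 0.37 with that library and 2.41 without it.

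Ifi27 (ENSMUSG00000064215, chr12:103434211-103440239, plus strand) lies 1927 bases from Ifi27l2a, with the 3′ ends of the genes facing each other. The longest identical run between their transcripts is 11 bases, so reads of one are not readily counted for the other. Ifi27 went from 40.3 to 78.8 CPM (median 51.6) in saline males to 62.4 to 107.4 CPM (median 97.1) with gardiquimod, a log2 change of 0.78 ± 0.16. In females it went from 44.6 to 86.1 CPM (median 59.6) to 67.6 to 120.2 CPM (median 92.1), a log2 change of 0.61 ± 0.16. The groups overlapped in both sexes, and the shift was smaller than that of Ifi27l2a on the log2 scale.

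Among the genes of surface and secreted proteins, Bst2 (ENSMUSG00000046718, chr8:71534255-71537456, minus strand) went from 3.97 to 8.54 CPM (median 7.10) in saline males to 9.26 to 20.4 CPM (median 16.4) with gardiquimod, with no overlap. In females it went from 5.16 to 14.6 CPM (median 7.99) to 12.5 to 30.2 CPM (median 20.5), and the groups overlapped. The log2 changes were 1.21 ± 0.22 in males and 1.20 ± 0.22 in females. Lgals3bp (ENSMUSG00000033880, chr11:118392751-118402092, minus strand) went from 17.2 to 27.8 CPM (median 23.5) to 33.8 to 69.0 CPM (median 42.2) in males, without overlap, and from 15.2 to 31.7 CPM (median 25.9) to 29.1 to 66.2 CPM (median 51.9) in females. Its log2 changes were 1.08 ± 0.19 and 0.98 ± 0.19. Rtp4 (ENSMUSG00000033355, chr16:23520291-23614222, plus strand) was at 1.66 to 3.87 CPM (median 1.83) in saline males and 3.81 to 7.46 CPM (median 4.0) in gardiquimod males, and at 2.05 to 4.84 CPM (median 2.56) and 3.91 to 7.01 CPM (median 5.75) in the female groups. The overlap in males came from the second saline library, at 3.87 CPM, and in females from the fourth, at 4.84 CPM. The log2 changes of Rtp4 were 1.15 ± 0.20 and 0.85 ± 0.19, the latter 1.01 without the fourth saline female.

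Ifitm3 (ENSMUSG00000025492, chr7:141009586-141010770, minus strand) and Cd52 (ENSMUSG00000000682, chr4:134082448-134095082, minus strand) changed less. Ifitm3 went from 8.56 to 17.3 CPM (median 14.9) to 13.9 to 25.7 CPM (median 22.0) in males. Female saline libraries held it at 11.3 to 26.0 CPM (median 11.6) and female gardiquimod libraries at 20.1 to 28.2 CPM (median 24.3). The log2 changes were 0.61 ± 0.17 and 0.70 ± 0.17, the latter 0.90 without the fourth female saline library, which had 26.0 CPM while the other saline females had 11.3 to 16.5 CPM. Cd52, a leukocyte surface glycoprotein, was at 1.05 to 2.60 CPM (median 1.93) and 1.91 to 4.30 CPM (median 3.35) in the male groups, and at 1.4 to 3.24 CPM (median 1.75) and 2.98 to 5.32 CPM (median 3.23) in the female groups. Its log2 changes were 0.73 ± 0.22 and 0.69 ± 0.21. The summed level of the microglia markers overlapped between saline and gardiquimod, at 494.0 to 634.5 CPM against 510.4 to 666.1 CPM.

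Ifitm2 (ENSMUSG00000060591, chr7:140954837-140955987, minus strand) and Ly6e (ENSMUSG00000022587, chr15:74955051-74959905, plus strand) had gardiquimod values that overlapped broadly with the saline values in both sexes. Ifitm2 ran from 5.15 to 9.0 CPM in saline and 4.30 to 9.60 CPM in gardiquimod males, and from 4.78 to 9.61 CPM and 4.67 to 8.52 CPM in females, with log2 changes of 0.14 ± 0.17 and -0.05 ± 0.17. Ly6e ran from 95.0 to 135.9 CPM and 97.1 to 120.2 CPM in males. Its female ranges were 95.5 to 126.5 CPM with saline and 103.6 to 158.9 CPM with gardiquimod. Its log2 changes were -0.08 ± 0.08 in males, turning to 0.04 with the Ttr level as a covariate, and 0.19 ± 0.07 in females. Ifitm2 lies 53598 bases from Ifitm3, and the longest identical run between their transcripts is 69 bases. Between the last 400 bases of each, where most 3′ reads lie, the longest identical run is 27 bases. Whether a part of the reads of each was counted for the other or dropped was not tested.

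**Figure D1:**
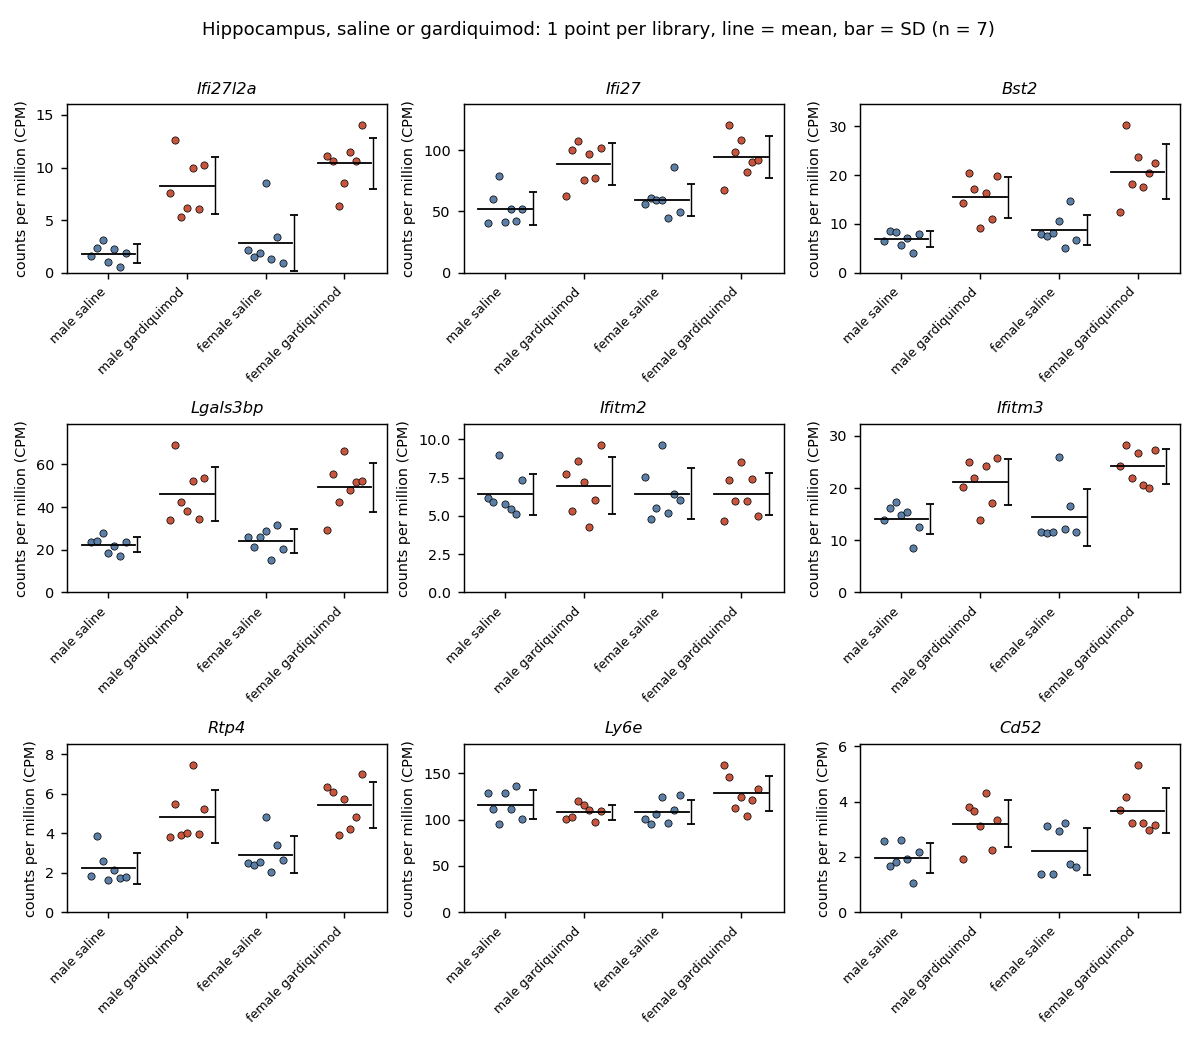
Level of each of the 9 genes (CPM, linear axis from 0) in every hippocampal library of the agonist experiment, with 1 point per library, a line at the group mean and a bar for the SD, n = 7 per group. Ifi27l2a, Bst2 and Lgals3bp do not overlap between saline and gardiquimod males, while Ifitm2 and Ly6e overlap across all 4 groups.

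A gene was called where the adjusted p of edgeR's quasi-likelihood test, with Benjamini-Hochberg adjustment over all genes tested, was below 0.05. Of the 9 genes, 5 were called higher in males (Ifi27l2a, Ifi27, Bst2, Lgals3bp and Rtp4), where 0.168% of all genes were; 1 was called higher in females (Bst2), or 5 without the fourth saline female (Bst2, Ifi27l2a, Lgals3bp, Ifitm3 and Rtp4), where 0.0232% were called with it; and 7, all except Ifitm2 and Ly6e, were called higher in the average of the sexes, where 0.215% were. The choice of the genes used this contrast, so nothing is read from these shares. Leaving out 1 of the 14 libraries at a time ended the male calls of Ifi27 in 8 cases, of Bst2 in 3 and of Ifi27l2a in 1 (without the first saline male), and the female call of Bst2 in 11. Without the fourth gardiquimod male, Ifitm3 was called in males as well, at 0.70. In the average of the sexes, the call of Cd52 was lost in 8 of 28 cases. Of 54 other interferon genes, 51 were tested, of which 6, 1 and 18 were called higher in males, in females and in the average, with median log2 changes of 0.62, 0.37 and 0.49, against medians over all genes of -0.0064, 0.0051 and -0.0054. The reference genes had log2 changes of 1.64 ± 0.19 (Irf7, the transcription factor that amplifies interferon production), 0.95 ± 0.15 (Ifit3) and 0.91 ± 0.18 (Isg15) in the average of the sexes.

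Choroid plexus markers varied widely between these libraries, and 0 of the 10 were called in males, in females or in the average. Fitted changes were positive for 9 in males and 10 in females. Their summed level had a median of 404.8 CPM in saline males (359.9 to 5632) and 4259 CPM in gardiquimod males (1809 to 6406). In females the medians were 3265 CPM (337 to 6637) with saline and 5598 CPM (197.1 to 7413) with gardiquimod. None of the 10 was at 0 in any group. Ifi27 ran with Ttr, the choroid plexus transthyretin gene, within saline males: it was 40.3 to 51.6 CPM in the 4 libraries with Ttr at 98.8 to 130.1 CPM and 51.8 to 78.8 CPM in the 3 with Ttr at 1884 to 3476 CPM. The lowest gardiquimod female for Ifi27, at 67.6 CPM, had the lowest Ttr, at 22.5 CPM. With the Ttr level as a covariate, the male log2 changes were 2.29 for Ifi27l2a, 0.55 for Ifi27, 0.95 for Bst2, 0.87 for Lgals3bp and 1.17 for Rtp4, and the male calls of the first 4 were lost. In the average of the sexes the values were 2.09 for Ifi27l2a, 0.52 for Ifi27, 1.004 for Bst2 and 0.87 for Lgals3bp. Ifitm3 was at 0.67, Rtp4 at 1.02 and Cd52 at 0.75, and the calls of all these genes in the average held. The female call of Bst2 held too, at 1.06.

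Whether the response to gardiquimod differed between males and females was tested with an interaction term. None of the 9 genes was called, where 0.00581% of all genes were, and 1 of them (Ly6e) had an unadjusted p below 0.05; DESeq2 called none. The difference of the log2 changes, females minus males, was -0.38 ± 0.54 for Ifi27l2a, with a 95% interval of -1.43 to 0.68 and an adjusted p of 0.763 in edgeR's quasi-likelihood test, and it was 0.19 without the fourth female saline library. For Ly6e it was 0.27 ± 0.11 (95% interval 0.059 to 0.472), with an edgeR adjusted p of 0.221. The intervals of Ifi27 (-0.62 to 0.27), Bst2 (-0.61 to 0.59), Lgals3bp (-0.61 to 0.41), Ifitm2 (-0.65 to 0.27), Ifitm3 (-0.39 to 0.57), Rtp4 (-0.85 to 0.25) and Cd52 (-0.63 to 0.55) all include 0. Saline females and saline males did not differ in a way that passed the test in any of the 9 genes either, where 0.430% of all genes were called, 0 had an unadjusted p below 0.05 and DESeq2 called 0. Ifi27l2a was 0.64 ± 0.42 higher in saline females on the log2 scale (edgeR adjusted p = 0.747), and 0.07 higher without the fourth library.

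In primary microglia, myelin was compared with DMSO within each sex and genotype, which describes the response of the cells to a load of myelin with and without Tlr7. The 9 genes split into groups. Bst2, Lgals3bp and Rtp4 were higher with myelin in all 4 sex and genotype combinations, Ifi27 was slightly higher in all 4, and Ifitm2 and Cd52 were lower in all 4. Ifi27l2a had lower group means in all 4, with overlap in KO males. Ifitm3 was higher without overlap in WT males and KO females, and Ly6e had no shared direction.

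Ifi27l2a was at 40.3, 35.7 and 34.4 CPM in WT males with DMSO and at 21.2, 21.6 and 23.5 CPM with myelin. In WT females it was at 46.8, 33.7 and 42.2 CPM and at 20.5, 17 and 22.0 CPM. In both WT sexes every myelin library lay below every DMSO library, with log2 changes of -0.66 ± 0.29 and -0.99 ± 0.29. KO males had 7.35, 9.63 and 28.2 CPM with DMSO and 7.53, 6.60 and 5.22 CPM with myelin, so the third DMSO library sat far above its group. KO females had 17.2, 15.5 and 18.6 CPM with DMSO and 15.3, 12.4 and 11.4 CPM with myelin. The KO log2 changes were -1.19 ± 0.38 in males, or -0.35 without that library, where it was no longer called, and -0.33 ± 0.33 in females.

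Ifi27 moved the other way and within narrow ranges. With DMSO and then with myelin it was at 51.3, 46.9 and 51.8 CPM and 54.4, 56.6 and 57.4 CPM in WT males, and at 48.1, 57.6 and 58.1 CPM and 63.2, 62.8 and 61.0 CPM in WT females. In KO males it was at 62.7, 69.5 and 58.9 CPM and 80.6, 79.6 and 80.0 CPM, and in KO females at 64.2, 61.6 and 64.4 CPM and 70.3, 75.5 and 78.5 CPM. All 4 comparisons were free of overlap, with log2 changes of 0.25, 0.24, 0.38 and 0.30 (each ± 0.06) in WT males, WT females, KO males and KO females. Groups of 3 libraries can be free of overlap by chance, here and in the other microglia comparisons.

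Bst2, the tetherin gene, was at 218.9, 234.6 and 198.9 CPM in WT males with DMSO and at 519.8, 479.4 and 499.2 CPM with myelin; WT females had 253.7, 180.6 and 209.1 CPM and 462.7, 402.3 and 486.0 CPM. KO males had 115.7, 119.3 and 223.5 CPM and 332.4, 314.6 and 285.6 CPM; KO females had 135.7, 135.1 and 151.3 CPM and 435.6, 368.1 and 322.8 CPM. The myelin libraries lay above the DMSO libraries in every combination, with log2 changes of 1.28, 1.12, 1.07 and 1.48 in WT males, WT females, KO males and KO females and SEs of 0.19 to 0.20. Lgals3bp behaved alike, from group means of 507.8, 473.6, 352.4 and 354.7 CPM with DMSO to 947.2, 846.8, 617.3 and 686.2 CPM with myelin, and log2 changes of 0.98, 0.89, 0.86 and 1.01. Rtp4 spread more. It went from 41.4, 54.3 and 35.4 CPM to 109.1, 92.3 and 97.8 CPM in WT males and from 51.9, 31.7 and 44.3 CPM to 91.6, 74.7 and 88.2 CPM in WT females. KO males went from 6.0, 8.28 and 34.6 CPM to 38.6, 34.8 and 31.9 CPM, where the third DMSO library alone makes the groups overlap, and KO females from 11.3, 16.0 and 15.3 CPM to 76.3, 62.2 and 46.2 CPM. The Rtp4 log2 changes were 1.27 ± 0.34, 1.04 ± 0.34, 1.16 ± 0.42 (2.35 without the third KO male DMSO library) and 2.16 ± 0.40.

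Ifitm3, the entry-restriction gene, had group means of 156.5, 167.1, 79.2 and 65.6 CPM with DMSO and 264.0, 224.9, 96.6 and 137.8 CPM with myelin in WT males, WT females, KO males and KO females. Its log2 changes were 0.83 ± 0.25, 0.48 ± 0.25, 0.33 ± 0.27 and 1.13 ± 0.27, and the KO male value was 0.90 without the third DMSO library, which had 129.7 CPM against 52.2 and 55.8 CPM in the other replicates. Its relative Ifitm2 was lower with myelin in every library: 67.8, 62.7 and 62.7 CPM against 43.7, 50.5 and 43.4 CPM in WT males, and 75.8, 70.2 and 74.7 CPM against 44.2, 49.9 and 46.4 CPM in WT females. In KO males it was 61.6, 63.9 and 57.5 CPM against 43.2, 44.9 and 44.9 CPM, and in KO females 63.7, 64.6 and 62.9 CPM against 38.3, 39.0 and 41.6 CPM. The Ifitm2 log2 changes were -0.41, -0.61, -0.42 and -0.63, with SEs of 0.05 to 0.06. Both genes were free of overlap, in opposite directions, in WT males and KO females; in WT females and KO males the Ifitm3 groups overlapped.

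Cd52 was lower with myelin in all 4 combinations without overlap, from group means of 235.9, 237.6, 184.7 and 203.9 CPM to 192.8, 195.0, 143.5 and 166.7 CPM, and its log2 changes were -0.21, -0.24, -0.32 and -0.23, each ± 0.07. Ly6e had log2 changes of 0.24 ± 0.16, -0.0097 ± 0.16, -0.22 ± 0.17 (0.097 without the third KO male DMSO library) and 0.0029 ± 0.16, and its groups overlapped in each combination. Several cell type markers moved with myelin in the same libraries. The summed level of the 13 microglia markers was 6727 to 8003 CPM with DMSO and 5201 to 5799 CPM with myelin, and in WT males, WT females, KO males and KO females 10, 10, 7 and 10 of them were called lower and 2, 1, 1 and 0 higher. The sum of 9 oligodendrocyte markers went from 190.9 to 312.7 CPM to 509.8 to 870.5 CPM, although of the 8 tested 2, 3, 2 and 2 were called higher and 1, 4, 3 and 3 lower, with median log2 changes of 0.12, -0.30, -0.32 and -0.24. The sum of 10 pericyte and fibroblast markers went from 184.0 to 206.2 CPM to 63 to 94.6 CPM in WT and from 111.1 to 141.4 CPM to 41.7 to 52.9 CPM in KO, with 1 of the 6 tested called lower and 0 higher in each combination. The sum of 8 astrocyte markers went from 49.8 to 61.8 CPM to 32.6 to 48.7 CPM in WT and from 44 to 68.5 CPM to 23.2 to 37.8 CPM in KO, with 2, 2, 2 and 3 called lower and 0, 1, 0 and 0 higher. No microglia, oligodendrocyte or astrocyte marker was at 0 in all libraries of a group, while Kcnj8, Rgs5 or Lum of the pericyte and fibroblast list was at 0 in each group. The part of these shifts in the lower values of Ifi27l2a, Ifitm2 and Cd52 was not tested.

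**Figure D2:**
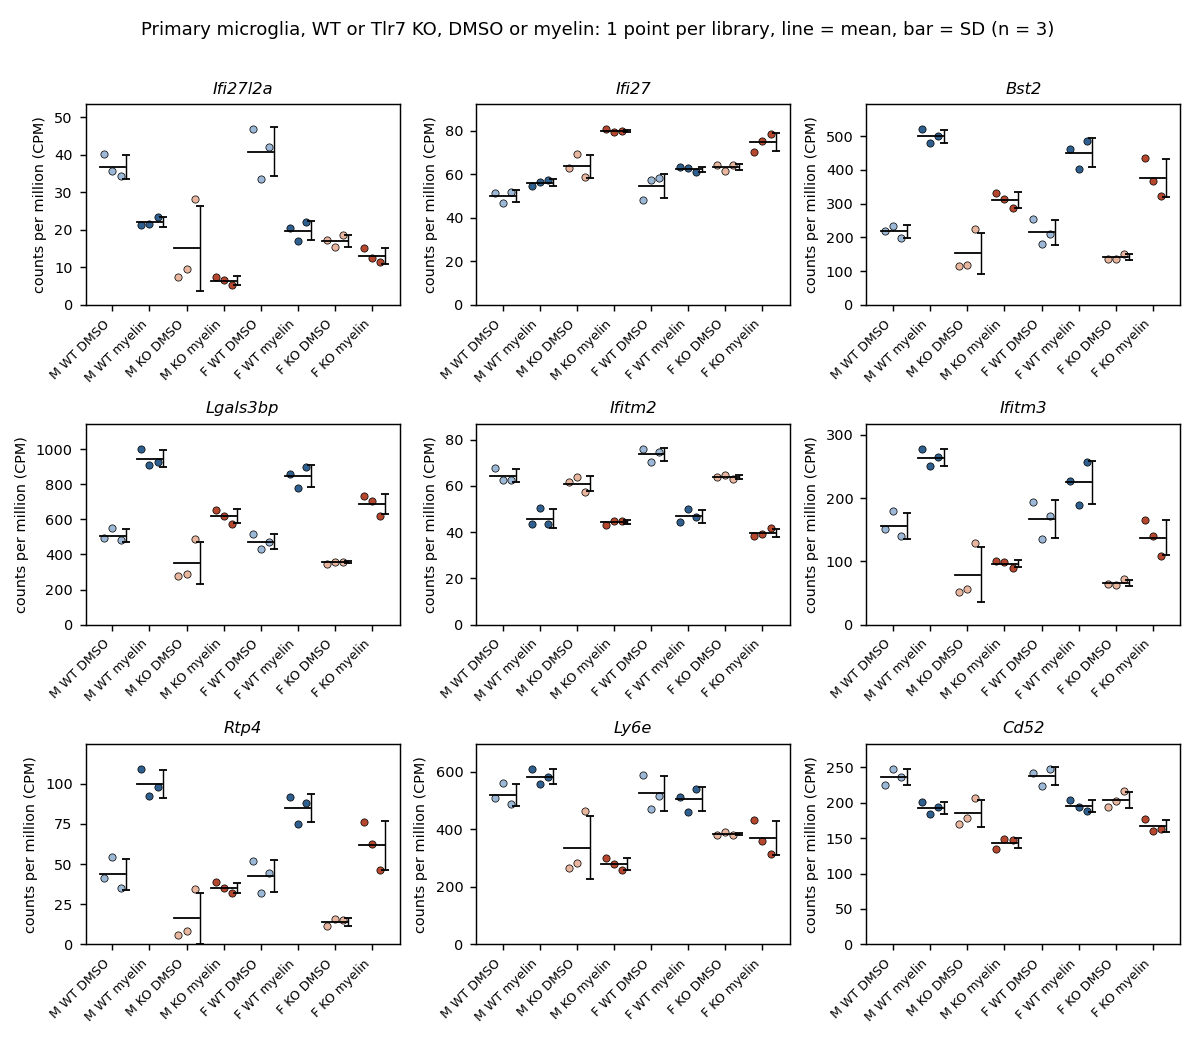
Level of each of the 9 genes (CPM, linear axis from 0) in all 24 microglia libraries, with 1 point per library, a line at the group mean and a bar for the SD, n = 3 per group. Bst2, Lgals3bp and Rtp4 step up with myelin, Ifitm2 and Cd52 step down, and the third KO male DMSO library stands above its group in Ifi27l2a (28.2 CPM) and Rtp4 (34.6 CPM).

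In WT males, WT females, KO males and KO females, 5, 4, 4 and 5 of the 9 genes were called higher with myelin, where 20.0%, 19.3%, 18.0% and 20.8% of all genes were, and 2, 3, 3 and 2 were called lower, where 19.4%, 21.1%, 20.2% and 20.4% were. Ifi27, Bst2, Lgals3bp and Rtp4 were called higher in each of the 4, and Ifitm3 in WT males and KO females; Ifitm2 and Cd52 were called lower in each, and Ifi27l2a in WT females and KO males. The choice of the genes used these contrasts too, and nothing is read from the shares. Leaving out 1 of the 6 libraries at a time ended the call of Rtp4 in 5 cases in KO males and 3 in WT females, of Ifi27l2a in 2 in KO males, of Ifitm3 in 1 in WT males, and of Cd52 in 3, 1 and 1 in WT males, WT females and KO females. With the Ttr and Pdgfra levels as covariates no member turned in sign except Ly6e in KO females (-0.07), and the calls of Ifitm3 in WT males, Rtp4 in WT females and KO males, and every call in KO females but that of Ifitm2 were lost. Of the 54 other interferon genes, 42, 26, 9 and 46 were called higher and 1, 1, 2 and 1 lower, with median log2 changes of 0.79, 0.52, 0.31 and 0.98, while the median over all genes lay between -0.013 and 0.014. Irf7 had 1.60 ± 0.34, 1.13 ± 0.34, 0.64 ± 0.40 and 1.93 ± 0.38. Ifi27l2a therefore differed in sign from the median of the other interferon genes in all 4 combinations, as did Ifitm2 and Cd52.

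KO and WT cultures were compared within each sex and treatment to describe what the cells express without Tlr7. Ifi27l2a was lower in KO in all 4 comparisons, and no KO library reached the level of the WT libraries of its sex and treatment in the values listed above. Its log2 changes were -1.21 ± 0.30 in males with DMSO (-2.03 without the third KO male DMSO library), -1.25 ± 0.29 in females with DMSO, -1.74 ± 0.36 in males with myelin and -0.58 ± 0.32 in females with myelin. Ifi27 was higher in KO in all 4, again without overlap, by 0.44, 0.22, 0.57 and 0.29 on the log2 scale, each ± 0.06. In males with myelin, for example, the 3 KO libraries lay at 79.6 to 80.6 CPM and the 3 WT libraries at 54.4 to 57.4 CPM. The neighbouring genes Ifi27 and Ifi27l2a thus moved apart in both sexes and with both treatments.

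The genes of the restriction factors and surface proteins were mostly lower in KO. In males with DMSO, females with DMSO, males with myelin and females with myelin, the log2 changes were -0.89, -1.34, -1.39 and -0.68 for Ifitm3 (SEs of 0.25 to 0.26), -1.35, -1.56, -1.45 and -0.44 for Rtp4 (0.33 to 0.41), and -0.42, -0.59, -0.63 and -0.24 for Bst2 (0.19 to 0.20). Lgals3bp had -0.44, -0.40, -0.56 and -0.28 (0.15 to 0.16), Ly6e -0.54, -0.44, -1.001 and -0.43 (0.16), and Cd52 -0.26, -0.21, -0.36 and -0.20 (0.07). Ly6e separated the genotypes in every library: with DMSO and with myelin, WT males lay at 487.7 to 561.3 CPM and 557.4 to 609.9 CPM and KO males at 265.4 to 462.6 CPM and 258.8 to 301.9 CPM, while WT females lay at 470.3 to 590.1 CPM and 460.2 to 540.3 CPM and KO females at 381.4 to 389.6 CPM and 314.7 to 433.8 CPM. Ifitm2 had 0.01, -0.19, 0.01 and -0.21 (0.05 to 0.06), with overlapping male groups and female KO libraries below the WT ones. Bst2 overlapped in males with DMSO and in females with myelin, Lgals3bp in males with DMSO, and Rtp4 in females with myelin. Without the third KO male DMSO library, the changes in males with DMSO were -1.46 for Ifitm3, -2.53 for Rtp4, -0.81 for Bst2, -0.76 for Lgals3bp, -0.85 for Ly6e and -0.36 for Cd52; Bst2 and Lgals3bp were then called as well.

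In that order of the 4 comparisons, 1, 1, 1 and 1 of the 9 genes were called higher in KO, in each case Ifi27, where 11.6%, 5.42%, 10.1% and 3.80% of all genes were, and 5, 4, 7 and 1 were called lower, where 9.32%, 6.48%, 10.6% and 3.48% were. The 1 called lower in females with myelin was Ifitm2. Of the 54 other interferon genes, 0 were called higher and 27, 29, 54 and 3 lower, with median log2 changes of -0.68, -0.73, -1.07 and -0.33, and medians over all genes between -0.0066 and 0.0055. None of the 54 had a fitted change above 0 in any of the 4, so that Ifi27 differed from each of them in sign, while Ifi27l2a did not. The KO and WT cultures also differed in other transcripts. With DMSO, the summed microglia markers were 7589 to 8003 CPM in WT and 6727 to 6983 CPM in KO. With myelin they were 5345 to 5799 CPM in WT and 5201 to 5669 CPM in KO. Of these 13 markers, 8, 6, 3 and 4 were called lower in that order of the 4 comparisons, and 2, 2, 4 and 4 higher. Their median log2 changes were -0.199, -0.275, -0.0043 and -0.096. The summed choroid and ependymal markers were 175.3 to 319.1 CPM in WT males and 9.01 to 32.8 CPM in KO males, but 116.9 to 273.4 CPM in WT females and 56.2 to 719.8 CPM in KO females. Of the 9 tested, 0 were positive in males, with median log2 changes of -3.29 with DMSO and -3.46 with myelin, and 9 were positive in females, with medians of 0.88 and 1.035; 1 of the 10 listed (Ccdc153) was at 0 in some of the groups. The summed border macrophage markers were 1454 to 1831 CPM in WT and 1091 to 1309 CPM in KO, while of the 6 tested 1 was called higher and 1 lower in males with either treatment, and 0 higher and 3 lower in females with either treatment. Their medians were -0.085, -0.49, 0.051 and -0.17 in the order above. The pericyte and fibroblast sums given above were lower in KO with each treatment, and 5, 1, 6 and 1 of the 6 tested were called lower. The part of these markers in the knockout values was not tested beyond a fit with the Ttr and Pdgfra levels as covariates. In that fit Ifi27 was at 0.36, 0.26, 0.48 and 0.28 and Ifi27l2a at -1.76, -0.89, -2.39 and -0.66, and every call of a member in these comparisons was lost except those of Ifi27 outside males with DMSO and of Ifitm2 in females with myelin (-0.22). Leaving out 1 of the 6 libraries at a time ended calls of Ifitm3 (3 cases), Rtp4 (4), Ly6e (4), Ifi27l2a (1) and Cd52 (1) in males with DMSO, Bst2 (5) and Lgals3bp (2) in males with myelin, Rtp4 (4) and Ifi27 (1) in females with DMSO and Ifitm2 (2) in females with myelin. Without the first WT DMSO female, the Ifi27 value in females with DMSO was 0.14, against 0.22 with it. The choice of the genes used these contrasts, so nothing is read from the calls. Whether these differences come from genotype or from separately made cultures cannot be told apart.

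The myelin and knockout contrasts share their libraries, so the difference of the myelin response between genotypes is given only as a value. For Ifi27l2a it was -0.53 ± 0.48 in males, or 0.31 without the third KO male DMSO library, and 0.67 ± 0.44 in females. For Rtp4 it was -0.11 ± 0.54 in males, or 1.09 without that library, and 1.12 ± 0.53 in females. For Ifi27 it was 0.13 ± 0.08 and 0.07 ± 0.08. For Ifitm3 in males it was -0.50, or 0.07 without that library, and for Bst2 -0.21 or 0.20. The male values of Ifi27l2a, Rtp4, Ifitm3 and Bst2 thus turned in sign with 1 library. Those of Lgals3bp and Cd52 turned as well, to 0.22 and 0.0083 without that library. Leaving out 1 of the 12 libraries at a time turned the male value of Ifitm2 in 7 cases and those of Ifi27 and Ly6e in 0.

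Ordered over the 8 groups, Ifi27l2a was highest in WT females with DMSO (40.9 ± 6.67 CPM, mean ± SD, n = 3 here and below), followed by WT males with DMSO (36.8 ± 3.09), WT males with myelin (22.1 ± 1.23), WT females with myelin (19.8 ± 2.54), KO females with DMSO (17.1 ± 1.55), KO males with DMSO (15.0 ± 11.4), KO females with myelin (13 ± 2.01) and KO males with myelin (6.45 ± 1.16). Neighbours in this order overlapped except between WT males with DMSO and with myelin, and between the last 2 groups. Ifi27 had nearly the reverse order: KO males with myelin (80.1 ± 0.53), KO females with myelin (74.8 ± 4.19), KO males with DMSO (63.7 ± 5.39), KO females with DMSO (63.4 ± 1.51), WT females with myelin (62.4 ± 1.15), WT males with myelin (56.1 ± 1.54), WT females with DMSO (54.6 ± 5.65) and WT males with DMSO (50 ± 2.70). Its first 3 groups were separated from each other and WT females with myelin from WT males with myelin, and the remaining neighbours overlapped.

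Likeness of profiles was measured as the root mean square difference of the 8 centred group means (log2 CPM) among 9617 other genes, and is a description over groups that share libraries. Nearest to Ifi27l2a, whose own profile had a root mean square of 0.77, were Uck2 (0.20), Ccnd2 (0.23), Ppbp (0.26), Ifi47 (0.27) and Axl (0.28). Ifi47 encodes an interferon-inducible GTPase, Ccnd2 a cyclin and Axl a receptor tyrosine kinase of phagocytes. Nearest to Ifi27, with an own value of 0.25, were Scly (0.054), Atp6v0d2 (0.059), Cd22 (0.062), Capn15 (0.072) and Tuba4a (0.072), of which Atp6v0d2 encodes a subunit of the vacuolar proton pump and Cd22 a sialic acid-binding receptor; none belongs to the 54 other interferon genes. By the same measure the nearest genes to Rtp4 were Ifit1 (0.16), Isg15 (0.19), Usp18 (0.20), Irf7 (0.20) and Cmpk2 (0.22), all interferon-stimulated, and Lgals3bp was among the 5 nearest to Bst2 (0.16).

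**Figure D3:**
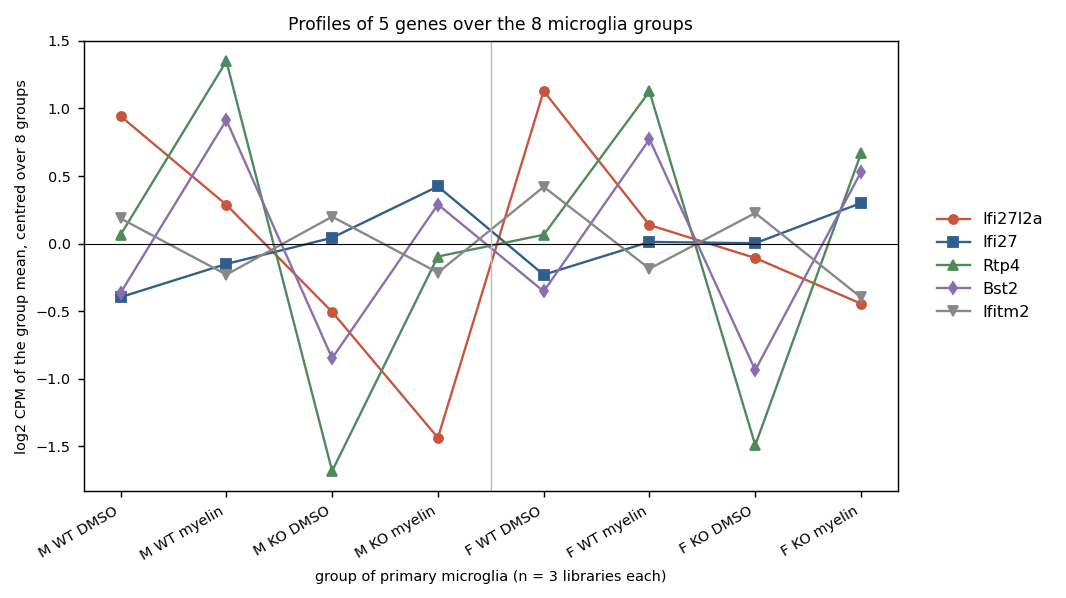
Group means of Ifi27l2a, Ifi27, Rtp4, Bst2 and Ifitm2 (log2 CPM, centred over the 8 microglia groups; n = 3 libraries per group), with lines joining the groups for reading only. Rtp4 and Bst2 zigzag with myelin, Ifi27l2a steps down from WT to KO and with myelin, and Ifi27 steps up.

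Whether the knockout difference depended on sex was tested. The choice of genes used no contrast of the sexes. It did use the knockout contrasts of each sex, from which this difference is built. The p-values, with myelin and with DMSO, are therefore to be read with that limit. With myelin, 1 of the 9 genes was called, where 6.51% of all genes were: the KO difference of Ifi27 was smaller in females than in males by 0.29 ± 0.08 on the log2 scale, a female minus male value of -0.29 with a 95% interval of -0.44 to -0.13 and an edgeR adjusted p of 0.0227. DESeq2 called this gene alone as well. Without the first female WT, the second female WT or the first female KO myelin library the edgeR adjusted p was 0.0562, 0.0508 or 0.0583, and with the Ttr and Pdgfra covariates the value was -0.20 with an adjusted p of 0.738. The call was lost in each of these 4 settings. Ifi27l2a differed in the other direction by 1.15 ± 0.49 (0.19 to 2.12), with an edgeR adjusted p of 0.192; Ly6e by 0.58 ± 0.23 (edgeR adjusted p = 0.158), Rtp4 by 1.02 ± 0.47 (0.239) and Ifitm2 by -0.23 ± 0.08 (0.0797). Ifitm2 was called in 4 of 17 alternatives, with edgeR adjusted p-values of 0.0239 without the filter on low counts and 0.0144, 0.0398 and 0.0183 without the second WT male, the first KO male and the third KO female myelin library, and over all 17 its adjusted p ran from 0.0144 to 0.832. For Ifi27 the range over the alternatives was 0.000585 to 0.738. The median over the other interferon genes was 0.77, against 0.00018 over all genes, with 6 of 54 called higher.

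With DMSO, none of the 9 was called for sex-by-genotype, where 7.53% of all genes were; Ifi27 and Ifitm2 had an unadjusted p below 0.05, and DESeq2 called none. Ifi27 had -0.22 ± 0.08 (edgeR adjusted p = 0.103), Ifitm2 -0.21 ± 0.08 (0.0794) and Ifi27l2a -0.04 ± 0.43 (0.975). Without the third KO male DMSO library, Ifi27l2a had 0.79 with an edgeR adjusted p of 0.0434, and Ifitm3 and Rtp4 turned from -0.44 and -0.21 to 0.12 and 0.98 without a call. Without the first WT DMSO female, Ifi27 had -0.31 with an adjusted p of 0.00818. Over all alternatives the adjusted p ran from 0.0434 to 1.0 for Ifi27l2a and from 0.00818 to 0.972 for Ifi27. In WT cultures with DMSO, 1 of the 9 differed between the sexes, where 3.70% of all genes did: Ifitm2 was higher in females, at 75.8, 70.2 and 74.7 CPM against 67.8, 62.7 and 62.7 CPM, a log2 difference of 0.23 ± 0.05 with an edgeR adjusted p of 0.00395, or 0.17 with an adjusted p of 0.828 with the Ttr and Pdgfra covariates. Ifi27 had 0.17 ± 0.06 (edgeR adjusted p = 0.0943), and its groups overlapped. Without the first WT DMSO female, which had 48.1 CPM against 57.6 and 58.1 CPM, it was called at 0.26 with an adjusted p of 0.0054. Over all alternatives the adjusted p ran from 0.0054 to 0.944 for Ifi27 and from 0.00143 to 0.828 for Ifitm2.

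The inhibitor experiment asked how the hippocampus of PSUK+ mice changed when TLR7 was inhibited, and none of its values entered the choice of genes. No member was called in females, in males or in the average of the sexes, where 0.0876%, 0.105% and 0.0117% of all genes were, and none for the sex-by-inhibitor interaction, where 2.41% were. Ly6e alone had an unadjusted p below 0.05, in females, in males and in the interaction; DESeq2 called 0, 0 and 0 members and, for the interaction, 1 (Ly6e). Ly6e was at 132.5, 92.0 and 98.5 CPM in female controls and 92.1 to 174.9 CPM (164.4, 174.9, 92.1, 151.6 and 116.8) with the inhibitor. It was at 119.3, 112.3 and 165.4 CPM in male controls and 72.7 to 104.8 CPM, with a median of 91.0, with the inhibitor. The male groups did not overlap and the female groups did. The log2 changes were 0.32 ± 0.15 in females (95% interval 0.03 to 0.61, edgeR adjusted p = 0.42) and -0.44 ± 0.14 in males (-0.71 to -0.16, edgeR adjusted p = 0.199). The difference between the sexes was 0.76 ± 0.21 (0.36 to 1.16) with an edgeR adjusted p of 0.0548; DESeq2 gave 0.0127, and across the alternatives the adjusted p ran from 0.0127 to 0.188. It was called in 5 of 21 alternatives: in DESeq2, with age as a covariate, and without the first control female or the third or the fifth inhibitor female.

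Ifi27l2a was at 1.02, 3.05 and 2.09 CPM in female controls and 0.487, 0.453, 0.672, 4.11 and 0.827 CPM in inhibitor females, 4 of which lay below every control and 1 above. Its log2 change in females was -0.74 ± 0.57 (95% interval -1.86 to 0.37, edgeR adjusted p = 0.626), or -1.80 with an adjusted p of 0.168 without the fourth library. In males it was at 0.939, 1.29 and 0.717 CPM in controls and 0.987 to 2.25 CPM (median 1.13) with the inhibitor, a log2 change of 0.63 ± 0.61 (-0.56 to 1.82). The sex-by-inhibitor value was -1.375 ± 0.83 with an edgeR adjusted p of 0.305, and -2.43 with 0.0484 without the fourth inhibitor female. That library was also the highest of its group in Lgals3bp (58.1 CPM against 11.8 to 24.9 CPM), Ifitm3 (17.1 against 6.66 to 9.68), Rtp4 (4.92 against 0.647 to 1.75), Bst2 (14.1 against 4.98 to 9.04) and Cd52 (7.67 against 0.647 to 2.89). In Ifi27 it was highest as well, at 63.7 CPM against 41.6 to 59.1 CPM. Without it, the female log2 change turned from 0.38 to -0.06 for Lgals3bp and from 0.37 to -0.43 for Cd52, and went from -0.46 to -1.12 for Rtp4. Cd52 was at -0.0084 without the first control female, and Rtp4 at 0.035 without the second. Without the second inhibitor female, Ifi27l2a was at -0.52, and no member turned in sign in females. None of these female log2 changes was called. The sex-by-inhibitor value of Ifi27l2a was called only without the fourth inhibitor female.

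Ifi27 had log2 changes of 0.36 ± 0.21 in females (95% interval -0.04 to 0.77) and -0.19 ± 0.20 in males (-0.58 to 0.20). The choroid and ependymal markers summed to 167.6 to 2339 CPM in female controls and 4562 to 6255 CPM in inhibitor females, and to 4431 to 5054 CPM and 261.6 to 6489 CPM in the male groups. None of the 10 was at 0 in any group, and their part in the Ifi27 values was not tested. In the average of the sexes the intervals were -0.88 to 0.77 for Ifi27l2a, -0.19 to 0.37 for Ifi27, -0.40 to 0.42 for Bst2, -0.32 to 0.68 for Lgals3bp, -0.36 to 0.34 for Ifitm3 and -0.79 to 0.54 for Rtp4. Groups overlapped in both sexes for every member except Ly6e in males. The 49 other interferon genes tested had median log2 changes of -0.28 in females, 0.30 in males and 0.013 in the average.

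**Figure D4:**
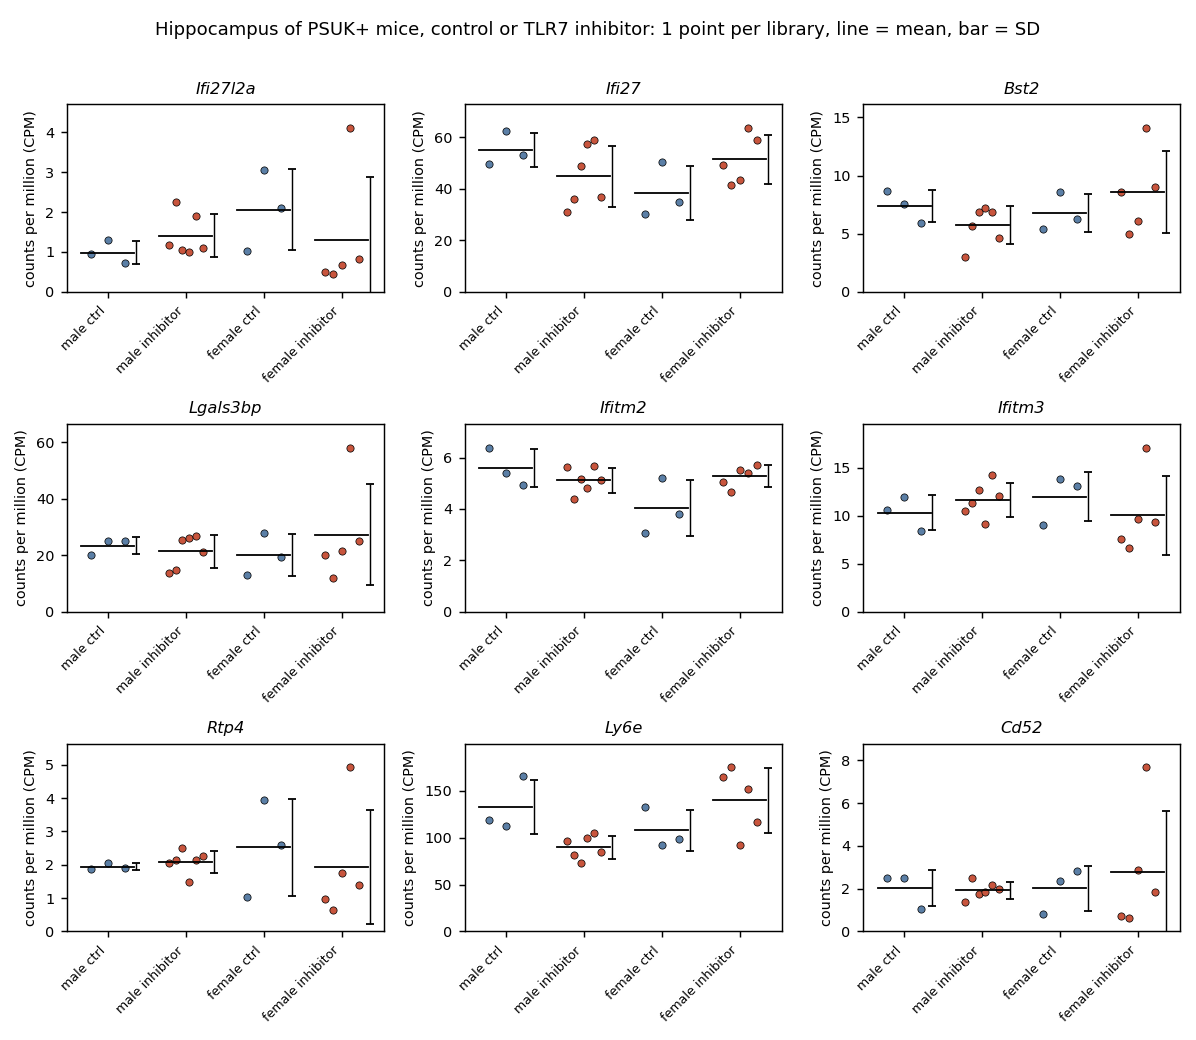
Level of each of the 9 genes (CPM, linear axis from 0, where longer SD bars end) in the 17 hippocampal libraries of the inhibitor experiment, with 1 point per library, a line at the group mean and a bar for the SD (n = 3 in each control group, 5 inhibitor females and 6 inhibitor males). Male Ly6e is the clearest separation, with controls at 112.3 to 165.4 CPM and inhibitor libraries at 72.7 to 104.8 CPM, and 1 inhibitor female is high in most genes.

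**Figure D5:**
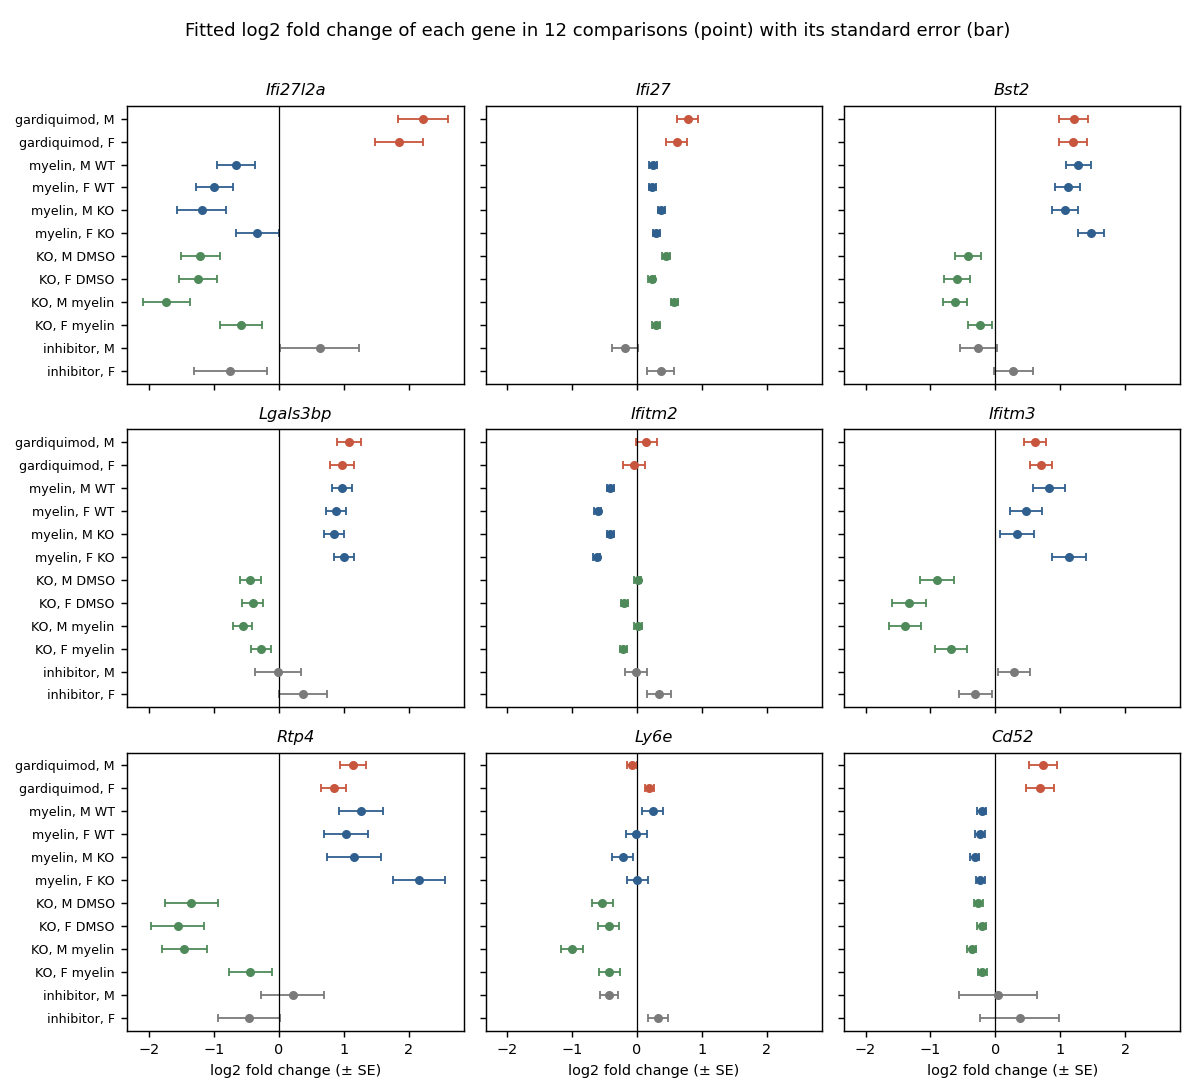
Fitted log2 fold change (point) and its SE (bar) of each gene in the 2 gardiquimod, 4 myelin, 4 knockout and 2 inhibitor comparisons; the line marks 0. Ifi27l2a is above 0 with gardiquimod and below 0 with myelin and knockout, Ifi27 is above 0 in all 3 kinds of comparison, and Bst2, Lgals3bp, Ifitm3 and Rtp4 are above 0 with gardiquimod and myelin and below 0 with knockout.

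Myelin and knockout contrasts share libraries, so their signs are set side by side without a test. Bst2, Lgals3bp, Ifitm3 and Rtp4 were positive with gardiquimod and myelin and negative with knockout. Ifi27 was positive in all 3 kinds. Ifi27l2a and Cd52 were positive with gardiquimod and negative with myelin and knockout. Ifitm2 was negative with myelin and near 0 or negative with knockout, and Ly6e was negative in all 4 knockout comparisons and mixed in sign with gardiquimod and myelin.

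Near relatives from the same families were examined with a list of 14 genes, of which 9, 7 and 8 were tested in the agonist, microglia and inhibitor experiments. In the average of the sexes the gardiquimod value was 0.03 ± 0.19 for Ifitm1, another entry-restriction gene. It was 0.14 ± 0.07 for Ly6a, a GPI-anchored relative of Ly6e, and 0.22 ± 0.07 for Lgals9. Of the 9 tested, 0 were called, where 0.215% of all genes were called higher. With myelin, 3 of the 7 were called higher in all 4 combinations: Lgals3, the galectin that binds the Lgals3bp product (0.67, 0.61, 0.44 and 0.55 in WT males, WT females, KO males and KO females), Lgals9 (0.75, 0.71, 0.72 and 0.88) and Cd24a, another small GPI-anchored surface protein (1.01, 1.0, 1.0 and 0.94). Ifitm1 was called lower in WT males (-1.99 ± 0.58) and KO females (-2.40 ± 0.56). Over the 4 combinations, 18.0% to 20.8% of all genes were called higher. In WT males and KO females, 19.4% and 20.4% were called lower. Nothing is read from the calls of relatives beside these shares. In KO, Ly6a was called lower in males with DMSO, females with DMSO and males with myelin (-1.18, -1.11 and -1.16). Its direction was that of Ly6e, while Lgals3 was called higher in the same 3 (0.35, 0.10 and 0.11). In that order, 9.32%, 6.48% and 10.6% of all genes were called lower and 11.6%, 5.42% and 10.1% higher. In the inhibitor experiment 1 of 8 was called, Ly6h for sex-by-inhibitor, where 2.41% of all genes were. Its value was 0.84 ± 0.19 with an edgeR adjusted p of 0.0332. Ly6h had the same signs as Ly6e in each sex (0.42 ± 0.14 in females and -0.42 ± 0.13 in males).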

How the data were processed

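RNA came from a column microprep kit, and 3′ libraries were made with the QuantSeq forward kit, per the labels' protocols, which call the RNA nuclear and from microglia even for libraries labelled hippocampus; such reads come from transcript 3′ ends, and counts were not corrected for length. The authors deposited raw counts per gene in 3 tables, whole numbers without scaling. Builds GRCm38 and mm10 and DESeq2 1.38.3 are named in the submitters' processing notes; aligner, counter and annotation were not given in the sources used here. The coordinates of genes in the deposited agonist count table matched GENCODE M21 for 98.3% of 54409 identifiers. Every count column matched a sample label.

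Samples were grouped by sex, genotype and treatment from their labels. Each table was fitted alone with edgeR 4.0.16 (R 4.3.3; filterByExpr, TMM scaling, quasi-likelihood test, a group-means model over all its libraries), on 17218, 14468 and 17128 genes, and was first tested on simulated data. Alternatives were DESeq2 1.42.0, its size factors, no filter, each library left out, a replicate block, and Ttr, Pdgfra (log2 of CPM plus 0.5) or age as covariates. The 9 members and all lists were chosen with earlier results of these data known. The text gives values of all members for gardiquimod within each sex, myelin and knockout, and of only some members in several other comparisons. It also names Tlr7, Irf7, Ifit3, Isg15, near relatives, and the 5 genes nearest in profile to Ifi27l2a and to Ifi27 (the nearest to Rtp4 and Bst2 were added after their values were seen). Nothing in the labels says that replicates came from separate animals or cultures, so p-values measure the spread between libraries, which may be technical in part. No libraries of 1 group held identical counts, and each pair differed beyond sampling noise. Intervals are 95%.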

Additional observations from a re-analysis of the deposited data

Results flagged for a closer look

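Among 54 sets of values (9 genes in the 6 hippocampal groups of 4 to 10 libraries), 8 held a library whose gap to its nearest neighbour exceeded Dixon's 95% limit; chance flags about 1 in 20. The fourth inhibitor female gave 4 of the 8, as the highest of its group in Ifi27l2a (4.11 CPM), Lgals3bp (58.1 CPM), Ifitm3 (17.1 CPM) and Rtp4 (4.92 CPM). The fourth saline female was the highest of its group in Ifi27l2a (8.55 CPM) and Ifitm3 (26.0 CPM), and its Ttr was the lowest of that group at 78.8 CPM. The sixth saline female was highest in Ifi27 (86.1 CPM), and it had the highest Ttr of its group, 4894 CPM. The second saline male was highest in Rtp4 (3.87 CPM). In microglia given myelin, the knockout difference of Ifi27 differed between the sexes by -0.285 (log2, females minus males) in the test of that difference.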

How the results depend on the processing

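All 64 called values of the 9 genes kept their sign under every alternative run, and 25 stayed called under all of them; nearly all of these are in contrasts that the choice of the genes used, so this is a description and no support. Of 3168 recomputed values of these genes, 113 lost a call and 34 gained one. With gardiquimod in males, calls held in 16 of 18 alternatives for Ifi27l2a, 8 for Ifi27 and 14 for Bst2. Counts of all genes called moved as follows, and the cause was not tested. Under DESeq2 the gardiquimod counts went from 38 to 254 in males and from 4 to 14 in females, sex-by-gardiquimod from 1 to 153, saline females against males from 74 to 124, and the inhibitor counts from 15 to 173 in females, 18 to 202 in males, 2 to 6 in the average and 413 to 1631 for sex-by-inhibitor. Without the filter on low counts, gardiquimod in females gave 1, sex-by-gardiquimod 9 and sex-by-inhibitor 273. With the Ttr covariate, gardiquimod in males gave 3 and sex-by-gardiquimod 2. With age as a covariate, the inhibitor in females gave 8. With the Ttr and Pdgfra covariates, myelin in KO females went from 5959 to 2273, KO in males with DMSO from 3027 to 478, in females with DMSO from 1721 to 871 and in males with myelin from 2987 to 323, genotype-by-myelin in females from 133 to 40, sex-by-genotype from 1089 to 25 with DMSO and from 942 to 49 with myelin, and WT females against males from 536 to 19.

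Leaving out 1 library at a time gave 7 (without the first saline male) to 329 (without the third) genes for gardiquimod in males, 0 (without the first saline female) to 10 (without the fourth) in females, 1 to 35 (without the fifth gardiquimod female) for sex-by-gardiquimod and 47 (without the first saline male) to 84 for saline females against males. In microglia it gave 73 (without the first WT myelin female) to 156 for genotype-by-myelin in females, 625 (without the first KO myelin female) to 1326 for sex-by-genotype with myelin and 281 (without the third female) to 486 for WT females against males. For the inhibitor it gave 0 (without the first control female) to 93 (without the third inhibitor female) in females, 1 (without the third control male) to 18 in males, 1 to 4 in the average, and 25 (without the third control female) to 2500 (without the third inhibitor female) for sex-by-inhibitor.

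Whether replicate numbers pair the microglia libraries is not settled. Within 1 sex and genotype, same-numbered libraries correlated above 0.1 in 3 of 12 pairs (r from -0.0581 to 0.442). Differently numbered ones did so in 1 of 24 (-0.399 to 0.277). Across sex or genotype the counts were 6 of 72 pairs (-0.0849 to 0.171) and 0 of 144 (-0.166 to 0.0931). The main fit used no block, and what libraries of 1 replicate number share was not tested. With that number as a replicate block, the counts were 5749, 5894, 5590 and 6024 for myelin in WT males, WT females, KO males and KO females, 3186, 1830, 3132 and 1139 for KO in males with DMSO, females with DMSO, males with myelin and females with myelin, 445 and 177 for genotype-by-myelin in males and females, 1220 and 1115 for sex-by-genotype with DMSO and myelin, and 646 for WT females against males, all within 1.5 times the counts without it. Each of those counts was above the count without the block. No paired analysis was possible in hippocampus because the labels give no replicate number that pairs libraries there. Depth limits Ifi27l2a, Rtp4 and Cd52 in hippocampus, where a library can hold 7, 10 and 10 reads of them.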
